A study of Mus musculus with 21 samples.

Results

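Neurexins, neuroligins and the related adhesion proteins Flrt2, Flrt3 and Slitrk1 were followed in the dentate gyrus of mice engineered for overexpression of NgR, the Nogo receptor. All probe sets annotated to Nrxn2, Nrxn3, Nlgn1, Nlgn2, Nlgn3, Flrt2, Flrt3 and Slitrk1 were taken, which gave 20 probe sets for 8 of 18194 genes with a symbol on the array. The bitransgenic mice carried an NgR transgene behind the tetracycline-responsive pTRE promoter together with the transactivator tTA, which drives it unless doxycycline is given. Monotransgenic controls carried the NgR transgene without tTA. Total RNA was hybridised to 21 Affymetrix arrays, 3 in each of 7 groups. Set 1 held bitransgenic mice switched to water to remove doxycycline, bitransgenic mice kept on a doxycycline diet so that the transgene stayed off, and monotransgenic mice. Experiment 2 held bitransgenic mice never given doxycycline and monotransgenic mice, and set 3 held bitransgenic and monotransgenic mice of a treatment not named in the labels. The labels give neither the promoter that drives tTA nor the age of the mice. Whether each array of a group came from an animal of its own is not said, and p-values here reflect only how far these samples differed, which may be technical.

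Synaptic adhesion proteins bridge the cleft between the sending and the receiving neuron and help to set which synapses form and how they mature. Neurexins sit mainly on the presynaptic side and bind neuroligins and LRRTM proteins on the postsynaptic side, as well as secreted cerebellins. Among the neuroligins, Nlgn1 is found mainly at excitatory and Nlgn2 at inhibitory synapses, and Nlgn3 occurs at both. FLRT proteins bind latrophilins (Adgrl genes) and Unc5 receptors, and SLITRK proteins bind receptor tyrosine phosphatases of the LAR family (Ptprd, Ptprs and Ptprf).

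The transgene and the tissue were checked first. The Rtn4r intensity, which reports NgR, ran from 254 to 1469 on the 9 arrays with the transgene on, from 63.8 to 185 on the 9 monotransgenic arrays and from 73.1 to 111 on the diet arrays. All 7 dentate granule cell markers were above the low-value filter, from Glis3 at 98.7 or more to Calb1 at up to 7492, and their summed intensity ran from 10667 to 15904. Of 4 meningeal markers, led by Ogn, the summed intensity was 703 to 862 on the set 1 monotransgenic arrays, 81.7 to 109 on the diet arrays and 57.5 to 94.1 after doxycycline removal. The higher level in monotransgenic mice was that of Ogn and Lum, while Col1a2 had its lowest set 1 mean there. A pair of experiment 2 arrays stood apart by the actin control, whose log2 ratio of 3′ to 5′ probe sets was 6.45 for bitransgenic array 2 and 5.97 for monotransgenic array 1, against 4.17 to 5.41 on the other 19. Experiment 2 also held 51.4% of the residual variance on 6 of the 21 arrays. Xist read 2361 to 4750 on its arrays and 9.59 to 33.7 on all others, so this sex marker and the set cannot be told apart.

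None of the adhesion genes passed the test in any comparison. Levels below are deposited intensities, scaled to a trimmed mean of 150 on each array and comparable only within a probe set. Differences are on the quantile-normalized log2(intensity + 16) scale with the standard error of a limma fit over all 21 arrays, with Benjamini-Hochberg adjustment of p-values across 27022 probe sets. Of the 20 adhesion probe sets 17 were tested, while 1455499_at of Nrxn2, 1432931_at of Nrxn3 and 1421648_at of Nlgn1 lay below the filter, with intensities of at most 21.9. In limma 0 of the 17 passed an adjusted p of 0.05 after doxycycline removal against the diet, where 0.0185% of all probe sets did. The count was also 0 for removal against monotransgenic (0.0333% of all), diet against monotransgenic (0.0037%), experiment 2 (0.311%), set 3 (0%) and the mean of the 3 differences between transgene-on and monotransgenic groups (0.0703%). At an unadjusted limma p under 0.05 there were 4, 0, 2, 1, 0 and 1 adhesion probe sets in these 6 comparisons. The shares of all probe sets at that level were 4.72%, 6.86%, 3.75%, 15.9%, 4.63% and 11.8%.

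The median difference of the 17 probe sets lay between -0.14 for diet against monotransgenic and 0.05 in set 3 and over the 3 sets. The median over all probe sets was between 0.00 and 0.01. The 3 arrays of one group lay apart from the 3 of the other for 4 adhesion probe sets in removal against diet, 2 in removal against monotransgenic and 5 in diet against monotransgenic, and for 0 in experiment 2 and 0 in set 3. Among all probe sets this held for 14.7%, 19.2%, 13.6%, 10.2% and 13.9%.

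**Figure D1:**
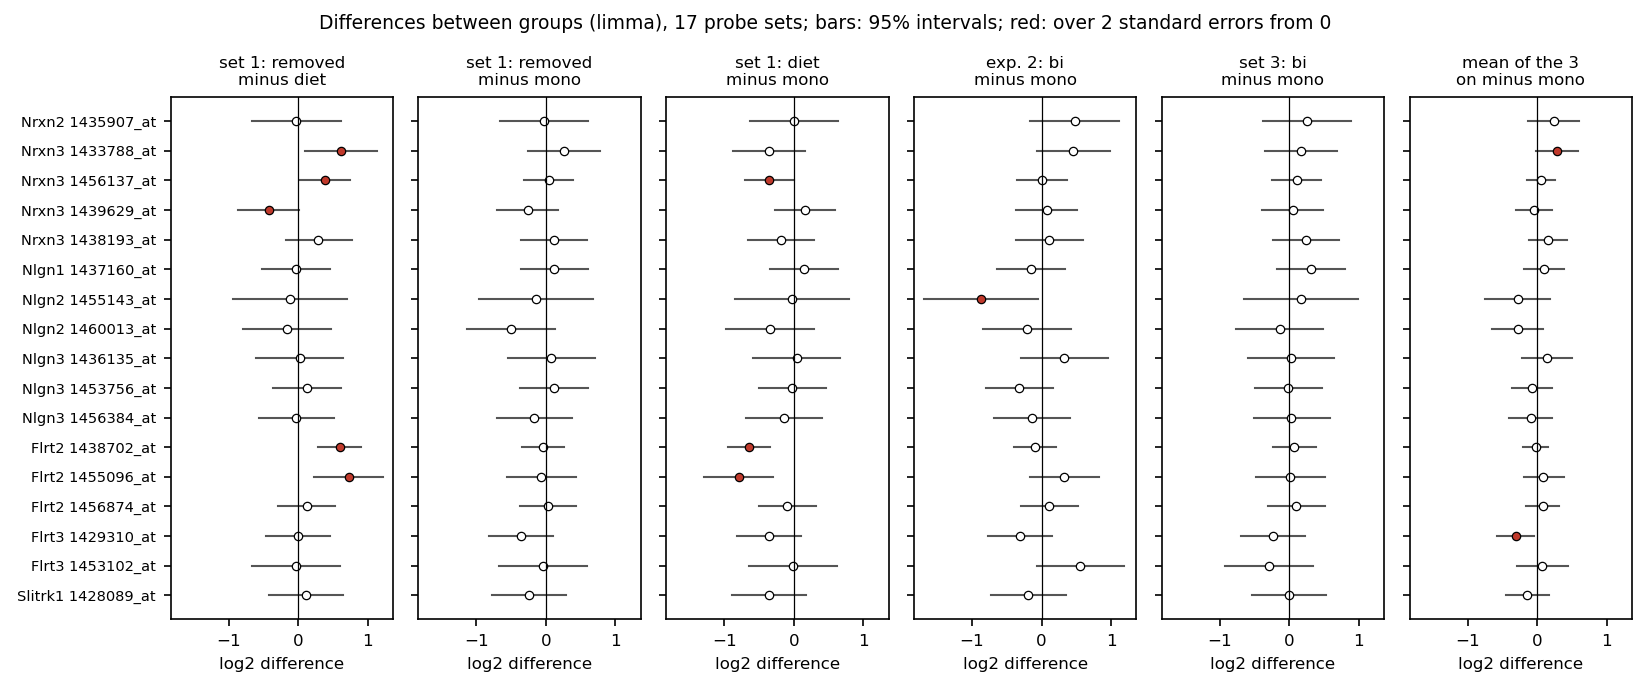
Log2 differences of the 17 tested probe sets (rows) in 6 comparisons (panels), as points with 95% intervals from the limma fit, with red points more than 2 standard errors from 0. The intervals of Flrt2 1438702_at and 1455096_at leave out 0 in the panels of removal minus diet and diet minus monotransgenic and include it in the others.

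Neurexin 3 is a presynaptic receptor with many splice forms. Its first probe set, meaning the one of highest mean level (1433788_at), read 719, 645 and 645 on the removal arrays of set 1, 335, 399 and 588 on its diet arrays and 537, 542 and 582 on its monotransgenic arrays. The 3 removal arrays lay above all 6 others of the set, and the diet arrays overlapped the monotransgenic ones. Removal minus diet was 0.62 ± 0.25 (SE, 3 arrays a group), a 1.53-fold ratio with a limma adjusted p of 0.964. On the mean of all 5 probe sets of the gene, among them 1432931_at below the filter, it was 0.17 (limma adjusted p = 0.999).

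The second probe set of Nrxn3, 1456137_at, read 191, 189 and 169 on removal arrays, 127, 144 and 148 on diet arrays and 168, 208 and 171 on monotransgenic arrays. All 3 diet arrays were also below the 12 arrays of experiment 2 and set 3, which ran from 159 to 340. Removal minus diet was 0.39 ± 0.17 and diet minus monotransgenic -0.35 ± 0.17, with limma adjusted p-values of 1 and 1.

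The 4 tested Nrxn3 probe sets did not give 1 answer. The third, 1439629_at, read 89.8, 104 and 77.4 on removal arrays against 155, 137 and 105 on diet arrays, so its removal minus diet difference had the other sign, at -0.42 ± 0.21. The fourth, 1438193_at, read 131, 103 and 85.5 against 59.5, 99.3 and 106, which overlap. After the mean of each set was subtracted, the first probe set had a Pearson r over 21 arrays of 0.61 with the second, 0.72 with the fourth and -0.08 with the third. These arrays share the normalization and fall in 7 groups, so r describes likeness only. Which transcripts each probe set reads was not analysed here.

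**Figure D2:**
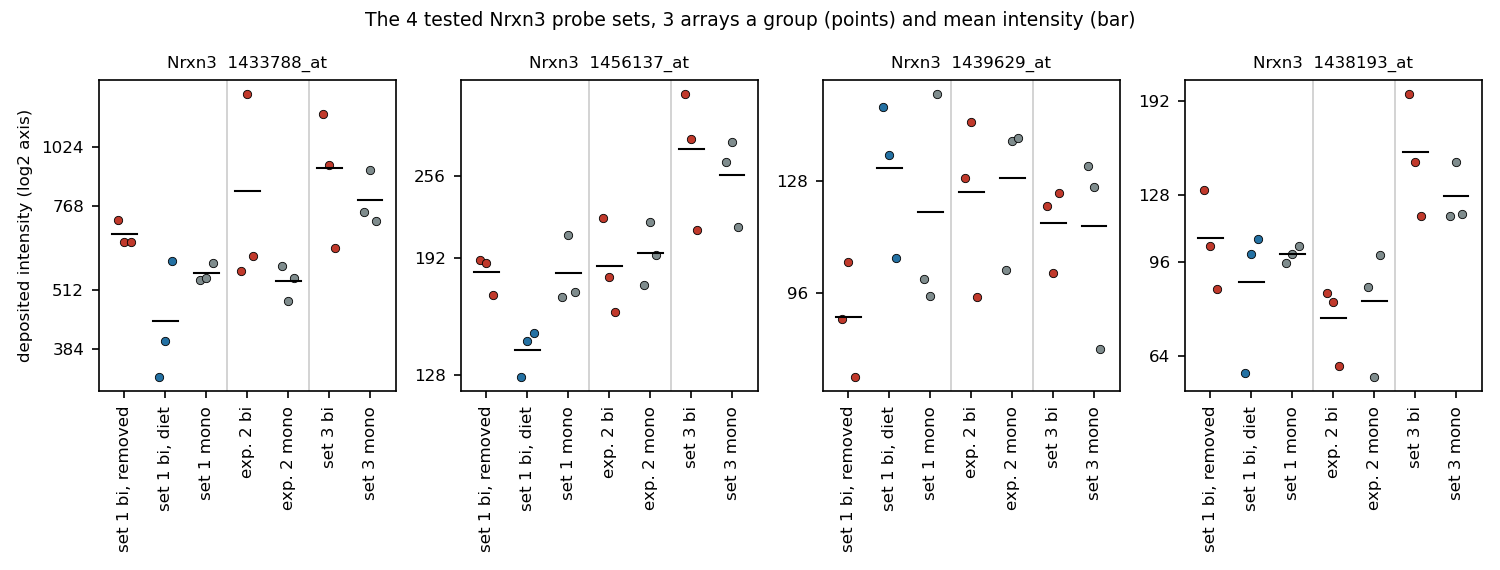
Deposited intensity (log2 axis) of the 4 tested Nrxn3 probe sets, with a point per array, a bar at the mean of each group, red for transgene on, blue for the doxycycline diet and grey for monotransgenic. On 1456137_at the 3 diet arrays, at 127 to 148, lie below all other arrays, and on 1439629_at they do not.

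With the transgene on, Nrxn3 1433788_at read 560, 1322 and 602 in experiment 2 against 573, 484 and 541 in its monotransgenic controls, and 1203, 936 and 626 in set 3 against 747, 917 and 714. The groups overlapped in both sets, and the reading of 1322 came from the array of highest actin ratio. The 3 within-set differences were 0.26, 0.46 and 0.17, with a mean of 0.29 ± 0.14 and a limma adjusted p of 0.433. On the mean of all 5 probe sets of the gene, again with the 1432931_at below the filter, it was 0.08. For 1433788_at without the pair of arrays with the highest actin ratios it was 0.20 ± 0.12. Over 8000 labelings within the 3 sets, an exact two-sided permutation test of the mean of 0.29 gave p = 0.049. That was 1 of 8 such tests, 1 for each gene, and it was not adjusted for their number. The p was 0.0915 without bitransgenic array 2 of experiment 2.

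Nrxn2, the other neurexin measured, had 1 probe set above the filter (1435907_at). In set 1 it read 113, 120 and 169 with doxycycline removed, 129, 157 and 136 with the diet and 101, 149 and 180 without tTA, and these groups overlap. In experiment 2 it read 292, 89.3 and 251 in bitransgenic and 76.2, 221 and 168 in monotransgenic mice, with the low value in each group on the array of highest actin ratio. The difference there was 0.48 ± 0.31 (limma adjusted p = 0.447). With the actin ratio as a covariate, an alternative added after seeing the data, it was 0.88 ± 0.18 and passed (limma adjusted p = 0.0193), as did 1.14% of all probe sets. With both arrays left out it was 0.53 ± 0.22 (limma adjusted p = 0.166). In set 3 the readings were 236, 199 and 232 against 206, 179 and 170, a difference of 0.25 ± 0.31.

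Among the neuroligins, Nlgn1 stood out by set rather than by transgene. Its probe set 1437160_at read 159, 165 and 138 on the removal arrays of set 1, 172, 182 and 136 on its diet arrays and 136, 150 and 144 on its monotransgenic arrays. In experiment 2 it read 74.9, 86.5 and 44.9 in bitransgenic and 77.6, 61.6 and 143 in monotransgenic mice, and in set 3 it read 202, 198 and 158 against 120, 165 and 162. Of the 6 experiment 2 arrays 5 were therefore below all 15 others, and the sixth was among them. How many of all probe sets set experiment 2 apart in this way was not counted. The difference between sets cannot be told apart from their sex markers or from how they were run. Within sets, bitransgenic minus monotransgenic was 0.12 ± 0.23, -0.15 ± 0.23 and 0.31 ± 0.23.

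Nlgn2, the neuroligin of inhibitory synapses, had readings far from their group on single arrays. Its first probe set 1455143_at read 686, 122 and 417 in bitransgenic and 344, 902 and 777 in monotransgenic mice of experiment 2, and the groups overlap. The lowest reading in each group came from the array of highest actin ratio. The difference was -0.87 ± 0.40 (limma adjusted p = 0.291). With single arrays left out it ran from -1.34 to -0.27. Without both arrays it was -0.68 ± 0.29, with the actin ratio as a covariate -0.33, and on the mean of both Nlgn2 probe sets -0.54. In set 3 the readings were 836, 724 and 758 against 715, 711 and 626, a difference of 0.17 ± 0.40. In set 1 they were 804, 332 and 761 with doxycycline removed, 524, 661 and 763 with the diet and 585, 617 and 734 without tTA, and the removal array at 332 stood below the other 8. The second Nlgn2 probe set, 1460013_at, read at most 65.6 on any array, and its 3-set mean difference of -0.28 ± 0.17 was not past the threshold (limma adjusted p = 0.552). Of 6 inhibitory neuron markers tested in experiment 2, 0 passed in limma, 1 (Gad1) had a higher level in bitransgenic mice, and their median difference was -0.42. Their mean normalized log2 level was 7.91, 7.63 and 7.74 on the bitransgenic and 8.03, 8.13 and 8.29 on the monotransgenic arrays, so the groups did not overlap, as was the case for 10.2% of all single probe sets. Their summed intensity, most of which is Gad1, overlapped, at 5053 to 6064 against 5040 to 5925. The median differences of the other marker lists in experiment 2 ran from -0.37 for thalamus to 0.37 for choroid plexus, with oligodendrocyte markers at -0.33. A lower median was therefore not particular to inhibitory neurons. The part of the inhibitory neuron markers in the Nlgn2 difference was not tested.

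Nlgn3 showed no separation of groups in any set. Its first probe set 1436135_at read 361, 444 and 498 on the removal arrays of set 1, 401, 479 and 399 on its diet arrays and 391, 443 and 405 on its monotransgenic arrays, and 561, 644 and 516 against 617, 633 and 458 in set 3. In experiment 2 it read 431, 1191 and 266 against 315, 475 and 416. Both the highest and the lowest reading of all 21 arrays were therefore bitransgenic arrays of experiment 2, with the highest on the array of highest actin ratio. The 3-set mean was 0.14 ± 0.17, with an exact permutation p of 0.608, and without both arrays it was -0.09 ± 0.10, with the other sign. Its other probe sets, 1453756_at and 1456384_at, had 3-set means of -0.07 ± 0.14 and -0.09 ± 0.15.

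**Figure D3:**
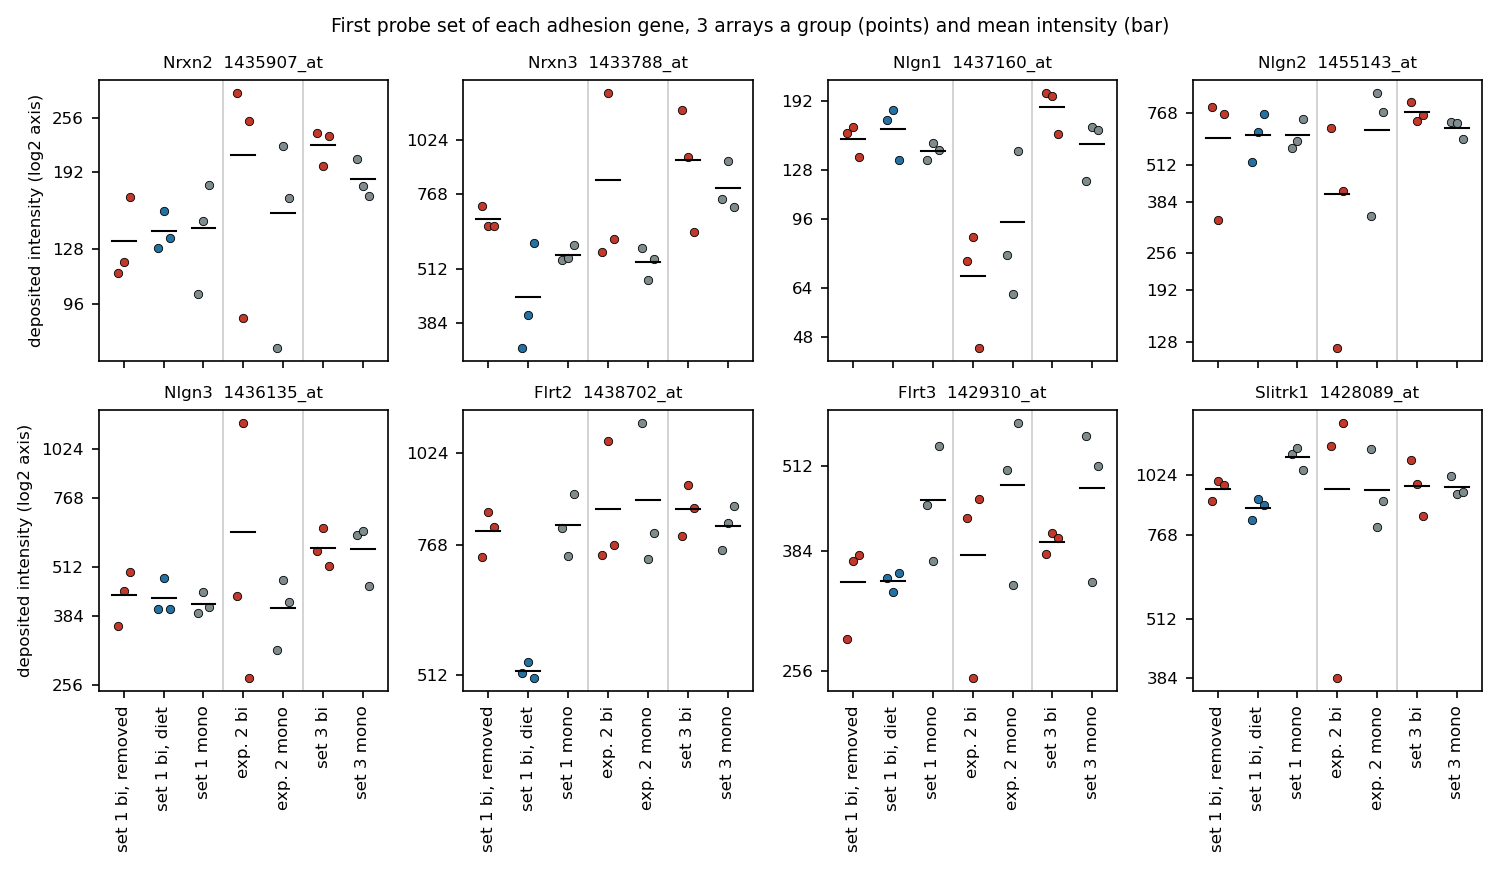
Deposited intensity (log2 axis) of the first probe set of each of the 8 genes, with a point per array, a bar at the mean of each group, red for transgene on, blue for the doxycycline diet and grey for monotransgenic. The 3 Flrt2 diet arrays, at 506 to 532, lie below all others, and the experiment 2 bitransgenic points of Nlgn2, Nlgn3 and Slitrk1 spread further than those of any other group in their panels.

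Flrt2, a ligand of Unc5 receptors and latrophilins, had the smallest p-values of the 8 genes. Its first probe set 1438702_at read 740, 852 and 813 on the removal arrays of set 1, 514, 532 and 506 on its diet arrays and 809, 743 and 900 on its monotransgenic arrays. In experiment 2 it read 744, 1063 and 769 in bitransgenic and 1124, 734 and 798 in monotransgenic mice, and in set 3 it read 790, 928 and 861 against 755, 823 and 869. The 3 diet arrays lay below all 18 others, whose groups overlapped one another. In ascending order the group means were 517 ± 13.3 (SD, n = 3) on the diet, 802 ± 57.1 after removal, 815 ± 57.4 in set 3 monotransgenic, 817 ± 79.1 in set 1 monotransgenic, 859 ± 177 in experiment 2 bitransgenic, 860 ± 69.1 in set 3 bitransgenic and 885 ± 209 in experiment 2 monotransgenic mice. Only the step from the first to the second was larger than the spread within groups.

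The level on the diet was lower than after removal by a log2 difference of 0.60 ± 0.15, a 1.52-fold ratio (limma adjusted p = 0.252). Against monotransgenic mice the diet difference was -0.64 ± 0.15 (limma adjusted p = 0.4). Neither passed in the fit over 21 arrays, where the spread of experiment 2 enters the error. Fitted on the 9 arrays of set 1 alone, with the same differences and an error of 0.10, both passed at limma adjusted p-values of 0.0186 and 0.0282, where 0.422% and 0.122% of all probe sets passed. With array weights the limma adjusted p-values were 0.0217 and 0.00964, where 0.263% and 0.115% of all passed. Without the pair of arrays of highest actin ratio they were 0.0285 and 0.0295, where 0.0777% and 0.0296% of all passed. With 3 arrays against 3, an exact permutation p could not go below 0.1. Removal minus monotransgenic was -0.04 ± 0.15, with a 95% interval of -0.35 to 0.26, and the 3-set mean was -0.02 ± 0.09.

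A second Flrt2 probe set, 1455096_at, gave the same order of groups in set 1, with 353, 594 and 430 on removal arrays, 285, 237 and 284 on diet arrays and 517, 387 and 531 on monotransgenic arrays. The 3 diet arrays were again below all 18 others, whose lowest reading was 353. Removal minus diet was 0.73 ± 0.24 and diet minus monotransgenic -0.79 ± 0.24, with limma adjusted p-values of 0.733 and 0.859. With array weights the second of these passed (-0.81, limma adjusted p = 0.0443). The third probe set, 1456874_at, read 44.3 to 55.3 with doxycycline removed, 36.4 to 55 with the diet and 41.6 to 60.5 without tTA, and these overlap. Like Nlgn1, it was low in experiment 2, where its 6 readings ran from 18.9 to 34.3, below the 36.4 to 73.9 of the 15 other arrays. The share of all probe sets that did so was not counted. The r of 1456874_at with the other Flrt2 probe sets was 0.13 and 0.12, while theirs with each other was 0.81 over 21 arrays after subtraction of set means.

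Among all 27022 probe sets, 0.207% had all 3 diet arrays below the other 18, and 3 of the 17 adhesion probe sets did, namely Flrt2 1438702_at and 1455096_at and Nrxn3 1456137_at. The criterion was chosen after these values were seen, and no test was made of it. The diet group is 1 set of 3 arrays, and it differs from the removal group by doxycycline itself as well as by NgR. Fewer cells that express a gene and less RNA per cell cannot be told apart in such bulk samples. The summed dentate granule markers were 10795 to 12118 on diet arrays, 10937 to 12982 on removal arrays and 13421 to 15638 on monotransgenic arrays, so the bitransgenic groups overlapped and the monotransgenic one was above both. The meningeal sums overlapped between diet and removal and were higher in monotransgenic mice. The members of this list did not move alike. Mean normalized log2 levels in the monotransgenic, removal and diet groups were 9.35, 5.19 and 4.98 for Ogn and 6.69, 5.21 and 5.44 for Lum. They were 5.20, 5.01 and 5.19 for Dcn and 4.79, 5.14 and 5.29 for Col1a2. The part of either marker list in the difference from monotransgenic mice was not tested.

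Unc5d, an Unc5 receptor, lay lowest in the same group. It was named for having the lowest limma p for diet against monotransgenic on the list of presynaptic partners given below. It read 138, 126 and 170 on diet arrays, 241, 241 and 170 on removal arrays and 239, 292 and 369 on the monotransgenic arrays of set 1. The diet arrays were all below the monotransgenic ones, and the highest of them rounded to the same intensity as the lowest removal array. Diet minus monotransgenic was -0.97 ± 0.22 (limma adjusted p = 0.389, or 0.06 in set 1 alone), and removal minus diet was 0.56 ± 0.22 (limma adjusted p = 0.951). Removal minus monotransgenic was -0.41 ± 0.22, within 2 standard errors of 0. Diet minus monotransgenic was -0.22 ± 0.20 for Unc5a, -0.11 ± 0.32 for Unc5b and -0.54 ± 0.22 for Unc5c. Another Unc5c probe set gave -0.19 ± 0.20. The latrophilins Adgrl1, Adgrl2 and Adgrl3 gave 0.20 ± 0.28, -0.33 ± 0.24 and -0.05 ± 0.20 on their probe sets of highest mean.

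**Figure D4:**
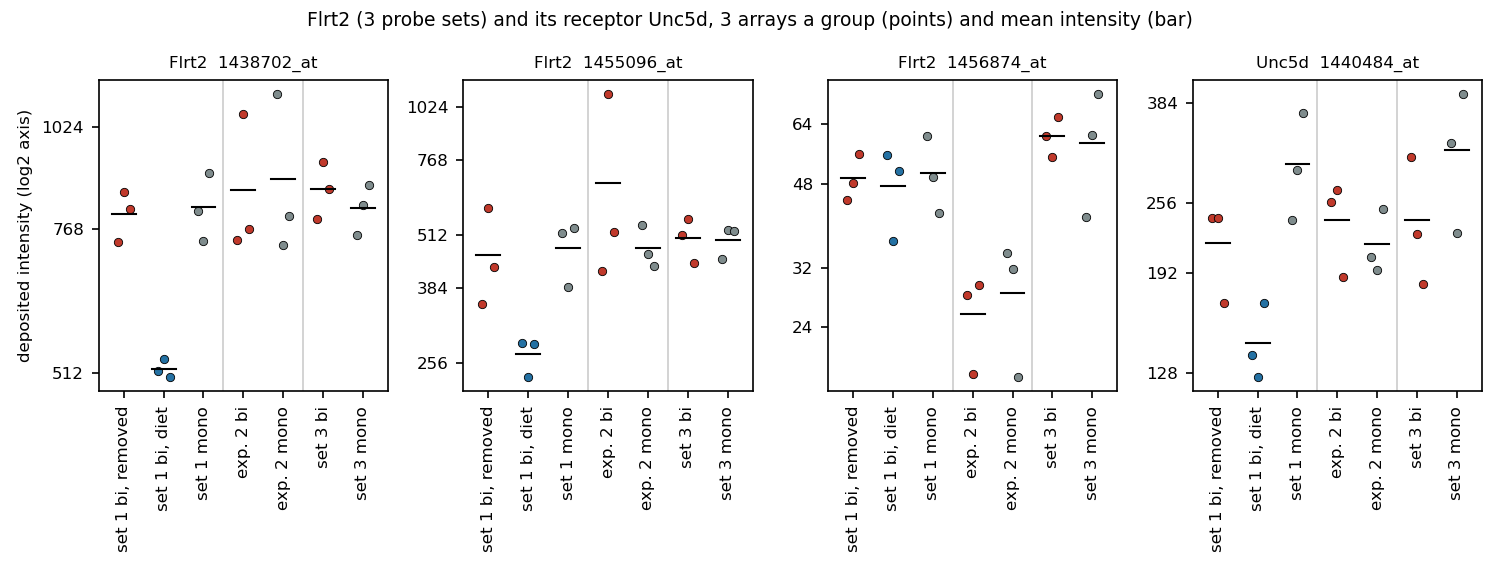
Deposited intensity (log2 axis) of the 3 Flrt2 probe sets and of Unc5d, with a point per array, a bar at the mean of each group, red for transgene on, blue for the doxycycline diet and grey for monotransgenic. In the first 2 panels the diet arrays lie below all others, at 506 to 532 and 237 to 285, while in the third they overlap the rest of set 1.

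Flrt3, the second FLRT ligand, had a lower group mean with the transgene on than in monotransgenic mice in each of the 3 sets on its first probe set. 1429310_at read 286, 372 and 379 on the removal arrays of set 1, 351, 335 and 357 on its diet arrays and 449, 372 and 548 on its monotransgenic arrays. It read 430, 250 and 458 against 505, 343 and 592 in experiment 2, and 381, 408 and 402 against 567, 346 and 513 in set 3. The groups with the transgene on overlapped their controls in all 3 sets, and the diet arrays did not overlap the monotransgenic ones. The differences were -0.36, -0.31 and -0.24, each ± 0.22, and their mean was -0.31 ± 0.13, a ratio of 0.809 (limma adjusted p = 0.335). The exact two-sided permutation p over 8000 labelings was 0.043, 1 of the 8 tests named above, and 0.104 without bitransgenic array 2 of experiment 2. Meningeal markers had mean normalized log2 levels of 5.89, 5.44 and 6.02 on the monotransgenic arrays of experiment 2. They had 6.60, 5.14 and 6.48 in set 3 and 6.67, 6.48 and 6.38 in set 1. The array of lowest mean had the lowest monotransgenic Flrt3 reading in experiment 2 and set 3, but the highest in set 1. The part of these markers in the Flrt3 differences was not tested.

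For the same Flrt3 probe set, removal minus diet was 0.00 ± 0.22, with a 95% interval of -0.46 to 0.46. Its second probe set, 1453102_at, read 65.8, 126 and 129 on removal arrays, 84.4, 144 and 108 on diet arrays and 123, 103 and 106 on monotransgenic arrays. The groups overlapped, and the 3-set mean was 0.07 ± 0.18. On the mean of both probe sets the 3-set mean was -0.12 (limma adjusted p = 0.713). The 2 Flrt3 probe sets had an r of -0.09 over 21 arrays after subtraction of set means. Of the 17 adhesion probe sets, 8 had 1 sign in all 3 sets, where 29.5% of all probe sets did.

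Slitrk1, which binds presynaptic LAR-family phosphatases, had readings in both bitransgenic groups of set 1 that did not overlap the monotransgenic ones. Among all probe sets this held for 19.2% in removal and 13.6% in diet against monotransgenic. The 1 probe set of Slitrk1, 1428089_at, read 904, 997 and 976 on removal arrays, 825, 914 and 888 on diet arrays and 1135, 1172 and 1052 on monotransgenic arrays. All 6 bitransgenic arrays were below the 3 monotransgenic ones, whichever way doxycycline was given. The differences were -0.24 ± 0.26 and -0.35 ± 0.26, within 2 standard errors of 0 (limma adjusted p = 0.946 and 1). Without the pair of experiment 2 arrays of highest actin ratio, which lowers the shared error, they were -0.24 ± 0.10 and -0.35 ± 0.10, past 2 standard errors but not the threshold (limma adjusted p = 0.349 and 0.409). In set 3 it read 1101, 982 and 842 against 1023, 935 and 944, a difference of 0.00 ± 0.26.

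In experiment 2 Slitrk1 read 1182, 384 and 1318 in bitransgenic and 1161, 798 and 904 in monotransgenic mice. The reading of 384, the lowest of the 21 arrays, came from the array of highest actin ratio. The difference was -0.19 ± 0.26 with all arrays and 0.45 ± 0.12 in a second fit without the pair of arrays of highest actin ratio, a change of sign. The second fit also left out the monotransgenic reading of 1161. It set only 1182 and 1318 against 798 and 904. In that second fit, added after seeing the data, it passed (limma adjusted p = 0.0395), as did 4.44% of all probe sets. The set 1 difference minus the experiment 2 difference was then -0.70 ± 0.16 (limma adjusted p = 0.0446, with 0.74% of all probe sets past the threshold), against -0.05 ± 0.36 (limma adjusted p = 0.974) with all arrays. With the actin ratio as a covariate the experiment 2 difference was 0.00 ± 0.24.

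**Figure D5:**
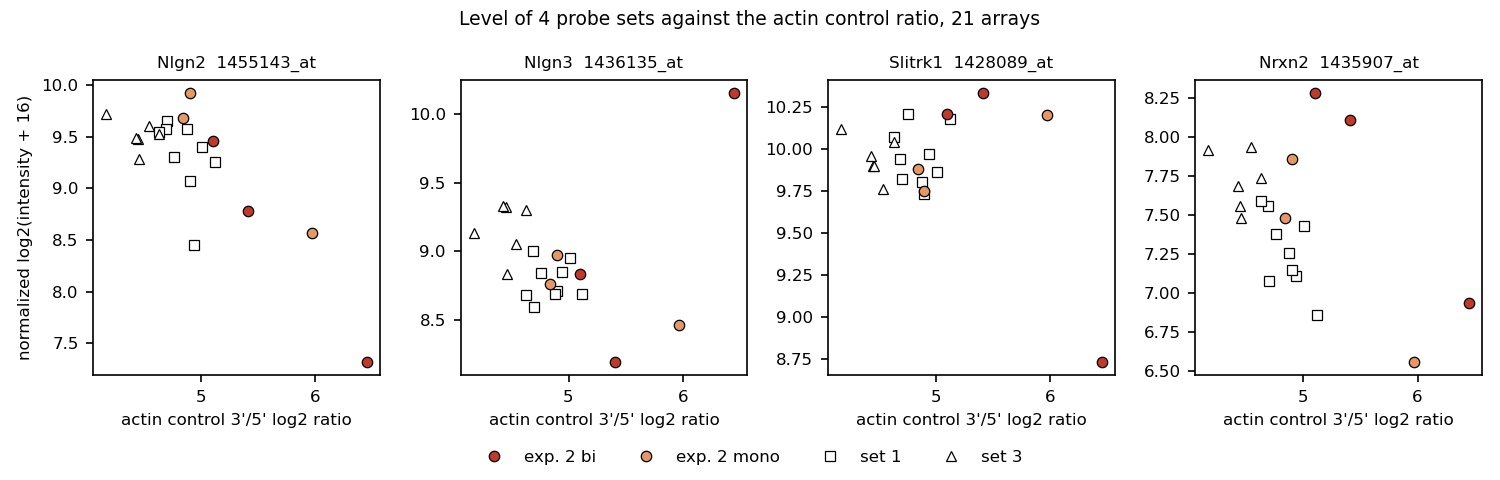
Normalized log2(intensity + 16) of 1 probe set each of Nlgn2, Nlgn3, Slitrk1 and Nrxn2 against the log2 ratio of 3′ to 5′ actin control probe sets, with a point per array, circles for experiment 2, squares for set 1 and triangles for set 3. The bitransgenic array at a ratio of 6.45 has the lowest Nlgn2 and Slitrk1 and the highest Nlgn3 level of the 21.

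Bitransgenic array 2 of experiment 2 was the lowest or the highest of its 6 arrays for 11 of the 17 adhesion probe sets, and for 51.6% of all probe sets. The SD within groups was larger in experiment 2 than in both other sets for 14 of the 17, and for 70.3% of all. The median SD of the adhesion probe sets, in log2 units, was 0.47 in experiment 2, 0.24 in set 1 and 0.22 in set 3, against 0.33, 0.20 and 0.19 over all probe sets. No adhesion probe set passed in limma for a difference between sets, where 0.0074% of all passed for set 1 against experiment 2, 0% for set 1 against set 3 and 0.0074% for experiment 2 against set 3. At an unadjusted limma p under 0.05 there were 0, 0 and 0 adhesion probe sets, against 8.94%, 3.92% and 8.53% of all.

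The genes whose levels ran most like each member's over the 21 arrays, after subtraction of set means, were ranked by Pearson r. For Nrxn2 they were Thop1 and Spryd4 (r of 0.86 and 0.86), and for Nrxn3 Pdcd6 and Caprin1 (0.91 and 0.87). For Nlgn1 they were Pbrm1 and Slc39a6 (0.83 and 0.81), for Nlgn2 Pmm1 and Sars (0.97 and 0.96), and for Nlgn3 2610507B11Rik and Golga4 (0.90 and 0.88). For Flrt2 they were Marcks and Psmc3ip (0.83 and 0.78), for Flrt3 Tmod1 and Arhgap20 (0.87 and 0.85), and for Slitrk1 Naca and Ube2q2 (0.95 and 0.93). Among the members themselves the strongest r between first probe sets was -0.80, between Slitrk1 and Nlgn3. Bitransgenic array 2 of experiment 2 was the lowest of the 21 for Slitrk1 and the highest for Nlgn3, and it weighs on such values.

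The binding partners and scaffolds of these proteins were read from 3 lists, with each gene at its probe set of highest mean. The list named presynaptic partners held 11 tested genes, namely LAR-family phosphatases, latrophilins, Unc5 receptors and Clstn3. Of these 0 passed in the 6 comparisons in limma, and 0 to 2 had an unadjusted p under 0.05. In experiment 2 those were the phosphatase Ptprs at -0.64 ± 0.22 and the latrophilin Adgrl1 at -0.69 ± 0.28, with limma adjusted p-values of 0.181 and 0.244 and groups that overlapped. For both genes the lowest reading in each group came from its array of highest actin ratio. In experiment 2 15.9% of all probe sets had an unadjusted limma p under 0.05. Of 14 intracellular scaffolds tested, 0 passed in the 6 comparisons, and 0 or 1 had an unadjusted p under 0.05. The lowest was that of Lin7c, a PDZ adaptor, in experiment 2 at 0.63 ± 0.18 (limma adjusted p = 0.116). Its groups overlapped, at 2112, 3931 and 2797 in bitransgenic and 2174, 1186 and 1915 in monotransgenic mice. The reading of 3931 came from the array of highest actin ratio.

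Of 29 other postsynaptic and secreted organizers tested, Lrrtm1 was the 1 that passed, in experiment 2 and over the 3 sets. LRRTM1 is a postsynaptic partner of neurexins. Set 1 gave 2516, 3965 and 3631 with doxycycline removed, 1527, 1403 and 1468 with the diet and 1401, 1446 and 1330 without tTA. It read 4282, 2869 and 3782 against 762, 813 and 1470 in experiment 2, and 3007, 2356 and 3297 against 1439, 848 and 1313 in set 3. All 9 arrays with the transgene on were above all 12 others. Lrrtm1 rose by 1.69 ± 0.23 in experiment 2 (limma adjusted p = 0.00294) and by 1.41 ± 0.13 over the 3 sets (limma adjusted p = 1.9e-05).

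Other organizers had low p-values without passing. C1ql3, a secreted ligand, had a 3-set mean of -0.37 ± 0.10 (limma adjusted p = 0.115), C1ql2 one of -1.24 ± 0.34 (0.127) and Lrrtm3 one of -0.54 ± 0.16 (0.162). For all 3 genes the groups overlapped in experiment 2 and in set 3. C1ql2, also on the dentate granule marker list, varied widely among monotransgenic arrays. It read 257, 156 and 210 in bitransgenic against 136, 442 and 1234 in monotransgenic mice of experiment 2. In set 3 it read 201, 289 and 353 against 886, 135 and 1132. Over the 3 sets 10 of the 29 organizers had an unadjusted limma p under 0.05, where 11.8% of all probe sets did. The list was chosen with earlier results of these data known. Its genes were read at their probe sets of highest mean and the share at all probe sets, so the count is no test of the list. The median difference of the 29 was -0.08, against 0.00 for all probe sets. Beside the Lrrtm1 difference over the 3 sets, the neurexins Nrxn2 and Nrxn3 had 3-set means of 0.24 ± 0.18 and 0.29 ± 0.14 on their first probe sets, which did not pass. The other tested Nrxn3 probe sets had 3-set means of 0.05 ± 0.10, -0.05 ± 0.12 and 0.15 ± 0.13.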

How the data were processed

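Total RNA of 21 dentate gyrus samples was measured on arrays, and the values used are the deposited linear intensity of each probe set. The authors scaled them to a mean of 150 per array after 2% trimming at each end, as the values show. No source used here names the software, and detection calls were not used. Groups came from the labels. Probe sets were named from the platform annotation, in which 34958 of 45101 had 1 symbol, and 34754 of these were found in RefSeq by Entrez ID.

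Values were transformed as log2(intensity + 16) and quantile normalized without 64 controls, and the upper 60% by mean (4.90 or more) were kept. In R 4.3.3, limma 3.58.1 fitted 7 group coefficients with 14 residual degrees of freedom and a variance trend, keeping probe sets apart. Tests were two-sided with a threshold of 0.05. The fit was tested on simulated data. Single genes were also tested by exact permutation. Figures used matplotlib.

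The members, partner lists and marker lists were chosen with earlier results of these data known. All member probe sets are described, with up to 4 genes of lowest p per partner list and the 2 genes nearest in pattern. A fitted difference was given a direction only past 2 standard errors. The order of readings and of group means is also given, as description only. Alternatives were other pseudocounts, filters, scalings, summaries per gene, fits within sets, weights, covariates, thresholds and leaving out each array. Those on the actin ratio and on the permutation tests were added after seeing the data. The number of arrays limits the precision.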

Additional observations from a re-analysis of the deposited data

How the results depend on the processing

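The counts of 0 adhesion probe sets past the threshold were the same with each single array left out in all 6 comparisons. For doxycycline removal against diet, 1 passed when set 1 was fitted alone, 1 with array weights, 1 without the pair of arrays of highest actin ratio and 1 with that ratio as a covariate. For diet against monotransgenic the counts were 1, 2, 1 and 1 in the same order. In experiment 2 they were 1 without both arrays and 1 with the covariate, and between sets 1 without both arrays. These were Flrt2, Slitrk1 and Nrxn2 as given above. The exact permutation p over 3 sets of Nrxn3 was 0.0503 with a pseudocount of 64 and that of Flrt3 0.089 with centring on the 75th percentile. With 1 array left out they ran from 0.00175 to 0.145 and from 0.0103 to 0.104. Shares of all probe sets past the threshold with the covariate were 0.0259% for removal against diet and 0.0259% for diet against monotransgenic. The small 3-set mean of Flrt2 changed sign on the deposited scale (exact p = 0.957), with 75th percentile centring (p = 0.465) and without single arrays (p from 0.519 to 0.999 over all 18). Those of Nlgn3 and Slitrk1 changed sign without bitransgenic array 2 of experiment 2 (exact p = 0.729 and 0.773), and without single arrays their p ran from 0.164 to 0.799 and from 0.226 to 0.78. The causes were not tested. No paired analysis was possible because the labels' sample numbers only name samples and the replicate numbers follow accession order. In set 3 some titles share a prefix across genotypes; with the prefix as a factor 0 adhesion probe sets passed in set 3 and 0 over the 3 sets, where the means of Nrxn3 and Flrt3 were 0.27 and -0.26. Signal limits Nlgn2 1460013_at, Nlgn3 1453756_at and 1456384_at and Flrt2 1456874_at, which lay closest to the filter.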
